A study of Canis lupus familiaris with 9 samples.

Results

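Perforin, the granzymes and the surface receptors of killer lymphocytes were followed in canine CD4+ peripheral T cell lymphoma (PTCL), in which a clone of mature helper-type T cells grows as a tumour. The genes were PRF1 (ENSCAFG00000014071), GZMA (ENSCAFG00000006735), GZMB (ENSCAFG00000025287), GZMK (ENSCAFG00000018379), NCR3 (ENSCAFG00000030919), CD8A (ENSCAFG00000007464) and KLRB1 (ENSCAFG00000013612). They were found by gene symbol among the 28008 features of the RNA sequencing tables. All 7 named genes were present, each as 1 feature.

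Killer lymphocytes, chiefly CD8+ T cells and natural killer (NK) cells, store perforin and granzymes in secretory granules. On contact with a target cell the granules fuse with the membrane, perforin opens pores, and the granzymes, which are serine proteases, enter the target and start its death. Helper T cells, which carry CD4, usually hold little of this machinery, although a minority of CD4+ T cells can become cytotoxic. The granzymes mark different states: granzyme B is typical of fully armed killers, granzyme A of NK cells and memory killer cells, and granzyme K of memory T cells. NCR3 encodes NKp30, an activating NK receptor. CD8A encodes the alpha chain of the CD8 co-receptor, which pairs with itself or with the beta chain from CD8B. KLRB1 encodes CD161, a C-type lectin receptor of NK cells and of some memory and unconventional T cells.

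The controls (n = 3) were normal CD4+ T cells obtained by sorting from healthy female hounds, each 1 year old and not neutered. The Boxer lymphomas (n = 3) came from a castrated male aged 6 years (Boxer lymphoma 1), a spayed female aged 8 (Boxer lymphoma 2) and a castrated male aged 6 (Boxer lymphoma 3). The other-breed lymphomas (n = 3) came from a spayed Cavalier King Charles Spaniel aged 3 (other-breed lymphoma 1), a spayed Rhodesian Ridgeback aged 4 (other-breed lymphoma 2) and a castrated male Collie aged 11 (other-breed lymphoma 3). Disease cannot be told apart from breed, age and neutering here, and the labels name sorting for the controls alone. That replicates are separate dogs is assumed and not stated for samples with the same details, so a p-value here reflects how far the samples of a group lie apart, which may be technical.

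The libraries held 11710623 to 18488468 reads. Values are normalised read counts, the authors' counts divided by 1 factor per library, and they allow libraries to be compared for a gene but not genes with each other, since they are not per length. All libraries carried the T cell receptor subunit gene CD3E, at 13794 to 22222 normalised reads, while CD4 itself was not analysed here. The T cell genes CD5 and CD6 were lower in every lymphoma (265 to 4320 and 179 to 4336) than in every control (10272 to 10649 and 6849 to 8636). Of 12 T cell identity genes in the test below, 1 rose, 1 fell and 10 did not pass, CD5 and CD6 among the last. These are bulk samples, in which fewer cells of a type and less RNA per cell cannot be told apart.

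Against the controls, PRF1 rose and NCR3 fell in the lymphomas, and the other 5 genes did not pass the test as a group difference. The test was limma on log2(value + 1) over 15977 genes, with an adjusted p (Benjamini-Hochberg) under 0.05 as the threshold. All 7 genes passed the filter on low values, a normalised count of at least 10 in at least 3 libraries. GZMA passed it through 3 lymphomas alone, so that a difference in its favour was built into its being tested. PRF1 also needed lymphomas to pass, with controls 2 and 3 at 9.91 and 9.26, so a rise was partly built into its being tested too. With no filter PRF1 was still called (limma adjusted p = 0.00411). Over all genes tested, 19.4% were called higher and 15.7% lower in lymphomas, so 1 of 7 in each direction is close to the background. The median log2 fold change of the 7 genes was 1.02, also with GZMA at its lower bound, beside 0.05 over all genes tested. That median is the value of CD8A, and it was 0.46 without other-breed lymphoma 1 and 0.40 to 1.59 over all fits that left out 1 library.

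**Figure D1:**
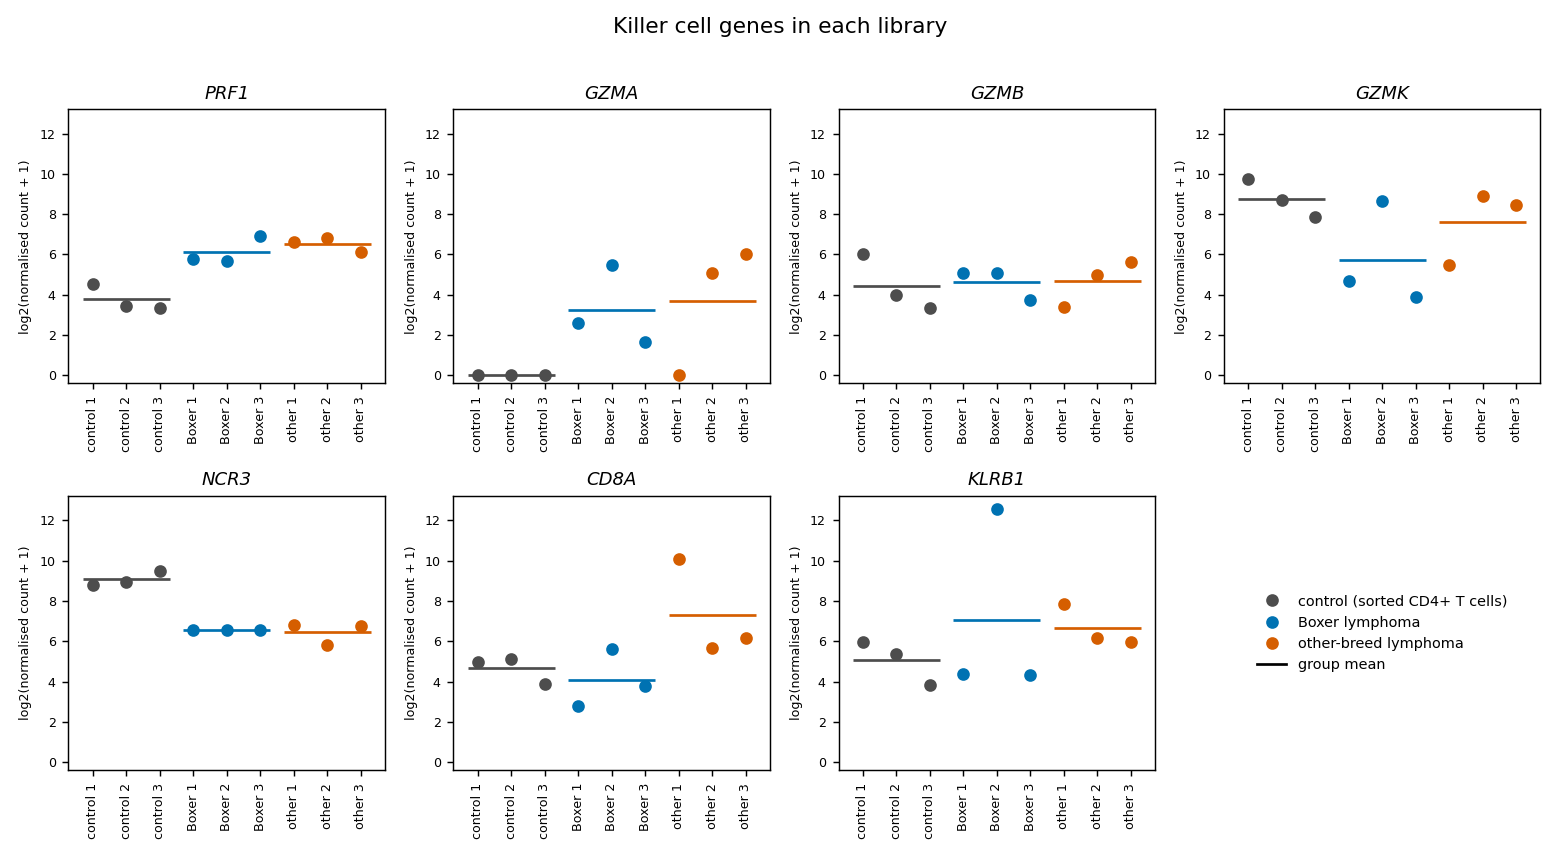
Normalised read count of each gene on a log2(value + 1) axis, with 1 point per library and a line at the mean of the 3 log2 values of each group. The 6 lymphomas lie above the 3 controls for PRF1 and below them for NCR3, while single lymphomas stand apart for CD8A (other-breed lymphoma 1, 1089) and KLRB1 (Boxer lymphoma 2, 6050).

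PRF1, the pore-forming protein of the granule, had 21.8, 9.91 and 9.26 normalised reads in controls 1 to 3. The Boxer lymphomas had 53.5, 50.2 and 121, and the other-breed lymphomas 96.5, 109.6 and 69.0. Every lymphoma was above every control, and the lowest lymphoma (50.2) was well clear of the highest control (21.8). The mean was 83.3 ± 29.9 in lymphomas (SD, n = 6) and 13.7 ± 7.08 in controls (n = 3), a ratio of 6.09. The log2 fold change was 2.54 ± 0.46 (SE, limma adjusted p = 0.00252). All 6 lymphomas lay above all 3 controls for 18.5% of the genes tested. Control levels rested on 16, 12 and 10 reads, with exact Poisson intervals of 12.5 to 35.5, 5.12 to 17.3 and 4.44 to 17.0 normalised reads that cover counting error only.

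Perforin was higher in both groups of dogs when each was set against the same 3 controls. The log2 fold change was 2.35 ± 0.54 in Boxer lymphomas (limma adjusted p = 0.0104) and 2.74 ± 0.54 in other-breed lymphomas (limma adjusted p = 0.00754). In the Boxer comparison 18.6% of genes were called higher and 14.4% lower, and in the other-breed comparison 13.8% and 10.7%. The call of PRF1 against the controls was kept in all 19 other analyses tried, with a log2 fold change of 2.23 to 3.06.

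Granzyme A stood out by its absence from the controls. GZMA had 0 reads in all 3 controls. The Boxer lymphomas had 5.10, 43.6 and 2.08 normalised reads, which were 6, 46 and 2 reads, and the other-breed lymphomas 0, 33.1 and 63.7, which were 0, 42 and 60 reads. The gene was thus plainly present in Boxer lymphoma 2 and other-breed lymphomas 2 and 3, and at or near the counting limit in the other 3. With no read, the exact Poisson upper bounds were 5.03, 3.05 and 3.42 normalised reads in controls 1 to 3 and 4.34 in other-breed lymphoma 1. The 2 reads of Boxer lymphoma 3 had an interval of 0.252 to 7.52, which overlaps those of the controls.

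Pooled over the lymphomas there were 156 reads of GZMA, at least 25.1-fold higher than in the controls when their 0 reads are set to a floor of 3 over the group. The test over libraries did not pass, with a fitted log2 fold change of 3.47 ± 1.30 (SE, adjusted p = 0.0597 by limma). It passed in 4 of 16 other analyses, among them a pseudocount of 0.5 (limma adjusted p = 0.0495), edgeR (adjusted p = 0.0416) and DESeq2 (adjusted p = 0.00156). With no filter it did not pass (limma adjusted p = 0.0708), nor with a pseudocount of 5 (limma adjusted p = 0.0990). Sex as a covariate gave a limma adjusted p of 0.122, and leaving out control 1, 2 or 3 gave 0.146 to 0.151. Without other-breed lymphoma 1, which had no reads, the limma adjusted p was 0.0134, and with age as a covariate the fitted change was 0.38 (limma adjusted p = 0.900). GZMA was not called in the Boxer or the other-breed lymphomas alone (limma adjusted p = 0.137 and 0.112), and was in both by DESeq2 (adjusted p = 0.0129 and 0.00481) and by limma without other-breed lymphoma 1 (adjusted p = 0.0374 and 0.0127).

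Granzyme B was low in all groups, and the groups overlapped. GZMB had 62.8, 14.9 and 9.26 normalised reads in controls 1 to 3. In the Boxer lymphomas there were 32.3, 33.2 and 12.5, and in the other-breed lymphomas 9.42, 30.8 and 48.8. Control 1 was the highest of all 9 libraries, and control 3 was the lowest. The log2 fold change was 0.21 ± 0.72 (SE, limma adjusted p = 0.840), with a 95% interval of -1.37 to 1.78 that allows a change in either direction. Its sign turned by edgeR and DESeq2 (-0.055 and -0.046) and with age as a covariate (-0.95), as well as without control 2 (-0.025) or control 3 (-0.34).

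Granzyme K had 845, 413.6 and 232 normalised reads in controls 1 to 3. Values in the Boxer lymphomas were 24.6, 395 and 13.5, and in the other-breed lymphomas 43.6, 478 and 346. GZMK thus split the lymphomas: Boxer lymphomas 1 and 3 and other-breed lymphoma 1 were below all controls, and the remaining 3 lay within the control range. Their exact Poisson intervals did not meet, ending at 60.0 in other-breed lymphoma 1 and starting at 309 in other-breed lymphoma 3. As groups the lymphomas had 217 ± 212 (n = 6) and the controls 497 ± 315 (n = 3), with a log2 fold change of -2.10 ± 1.15 (SE, adjusted p = 0.177 by limma). In the Boxers alone it was -3.04 ± 1.25 (limma adjusted p = 0.0898), and without Boxer lymphoma 2 it was -4.49 (limma adjusted p = 0.0133). In the other-breed lymphomas it was -1.15 ± 1.25 (limma adjusted p = 0.527), and -0.089 without other-breed lymphoma 1. With sex as a covariate the change over all 6 lymphomas was -1.09 (limma adjusted p = 0.539).

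**Figure D2:**
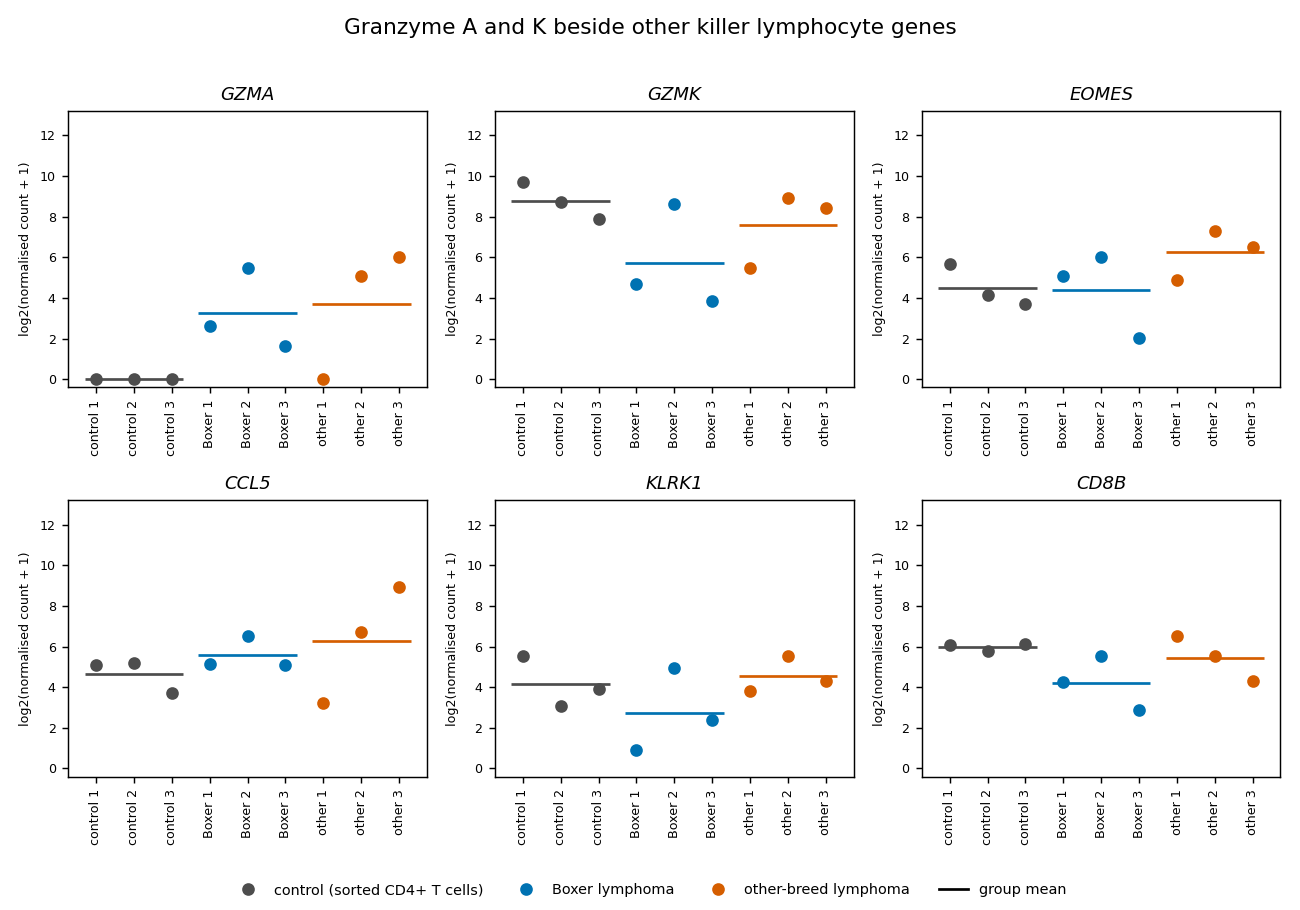
Normalised read counts on a log2(value + 1) axis of GZMA and GZMK beside the transcription factor gene EOMES, the chemokine gene CCL5, the receptor gene KLRK1 and CD8B, with 1 point per library and a line at the mean of each group's log2 values. Boxer lymphoma 2 and other-breed lymphomas 2 and 3 are the 3 highest lymphomas for GZMA, GZMK, EOMES, CCL5 and KLRK1, and not for CD8B.

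The 3 lymphomas with more GZMA were also the 3 with more GZMK. Among other genes of killer lymphocytes, EOMES, CCL5 and KLRK1 were also highest in these 3 lymphomas. They were picked after the values were seen, so the pattern has no test. EOMES, a transcription factor of memory killer cells, had 64.5, 157 and 91.3 normalised reads in Boxer lymphoma 2 and other-breed lymphomas 2 and 3, and 32.3, 3.12 and 28.2 in Boxer lymphomas 1 and 3 and other-breed lymphoma 1. For CCL5, a chemokine that killer cells secrete, the values were 92.0, 103 and 487 against 34.0, 33.3 and 8.24. For KLRK1, which encodes the activating receptor NKG2D, they were 29.4, 44.9 and 19.1 against 0.850, 4.16 and 12.9. PRF1 did not share the order, since Boxer lymphoma 2 had the fewest perforin reads of the lymphomas and Boxer lymphoma 3, with 2 reads of GZMA, had the most. Nor did KLRD1, FASLG, TBX21 and CTSW. For example, Boxer lymphoma 2 was below other-breed lymphoma 1 for KLRD1 (6.64 and 12.9) and FASLG (15.2 and 75.3). GZMB was close to GZMA over the 6 lymphomas (Pearson r = 0.91, Spearman rho = 0.94). It departed in that Boxer lymphoma 1 (32.3, 38 reads) was just above other-breed lymphoma 2 (30.8, 39 reads). Their exact Poisson intervals, 22.8 to 44.3 and 21.9 to 42.0, overlap, so the counts did not resolve that order. Among the controls, control 1 was the highest for GZMB, GZMK, KLRB1, EOMES and KLRK1.

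NCR3, the NKp30 receptor gene, differed with the smallest SE of the 7 genes. The controls had 437, 499 and 717 normalised reads. In Boxer lymphomas 1 to 3 there were 94.3, 93.9 and 93.7, and in the other-breed lymphomas 112, 55.2 and 107. Every lymphoma was below every control, and the control mean was between 4.93 and 9.98 times the value of a single lymphoma. The lymphoma mean was 92.7 ± 19.9 (n = 6) and the control mean 551 ± 147 (n = 3). On the log2 scale the difference was -2.56 ± 0.29 (SE, adjusted p = 2.07e-04 by limma). All 6 lymphomas lay below all 3 controls for 17.2% of the genes tested.

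The change of NCR3 was -2.51 ± 0.35 in Boxer lymphomas (SE, limma adjusted p = 0.00105) and -2.61 ± 0.35 in other-breed lymphomas (limma adjusted p = 0.00131), against the same controls. The call of NCR3 was kept in all 19 other analyses of the 6 lymphomas, where the log2 fold change ran from -2.79 to -2.35. The SD among the 3 Boxer lymphomas was 0.309 normalised reads on a mean of 94.0, on 111, 99 and 90 reads. The exact Poisson interval of Boxer lymphoma 3 alone was 75.4 to 115, so the closeness of the 3 values is finer than the depth can resolve.

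CD8A was low in the sorted controls, at 30.0, 33.8 and 13.9 normalised reads. The Boxer lymphomas had 5.95, 48.3 and 12.5, and the other-breed lymphomas 1089, 48.9 and 70.0. Other-breed lymphoma 1 stood far above the rest, at 42.0 times the control mean and on 925 reads. The other-breed lymphomas were all above the controls, and Boxer lymphomas 1 and 3 were below them. Over the 6 lymphomas the log2 fold change was 1.02 ± 1.29 (SE, limma adjusted p = 0.561), and 0.14 (limma adjusted p = 0.910) without other-breed lymphoma 1. For the other-breed lymphomas against controls it was 2.64 ± 1.16 (limma adjusted p = 0.126), and 1.24 (limma adjusted p = 0.337) without that library. For the Boxer lymphomas it was -0.60 ± 1.16 (limma adjusted p = 0.715), and 0.031 without Boxer lymphoma 1.

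CD8B, the partner chain, was also highest in other-breed lymphoma 1, by a far smaller amount. It had 66.9, 53.7 and 69.5 normalised reads in controls, 17.8, 45.5 and 6.25 in Boxer lymphomas and 90.6, 44.9 and 19.1 in other-breed lymphomas. The ratio of CD8A to CD8B reads was 0.449, 0.631 and 0.2 in controls. It was 0.333, 1.06 and 2 in Boxer lymphomas and 12.01, 1.09 and 3.67 in other-breed lymphomas. All lymphomas other than Boxer lymphoma 1 were above the controls in this ratio. In Boxer lymphoma 3 the ratio rested on 12 reads of CD8A and 6 of CD8B. No interval of the ratio was computed, and how often other gene pairs part in this way was not counted. The ratio is of reads and not per length, so its level does not give the makeup of the protein. CD8B was not called, with a log2 fold change of -1.16 ± 0.72 (SE, adjusted p = 0.227 by limma).

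KLRB1, the CD161 gene, had 61.4, 40.5 and 13.0 normalised reads in controls. Boxer lymphomas 1 to 3 had 19.5, 6050 and 18.7, and the other-breed lymphomas 229.5, 70.2 and 60.5. Boxer lymphoma 2 had 158 times the control mean, on 6382 reads. The next highest library, other-breed lymphoma 1, had 6.00 times the control mean. Other-breed lymphoma 2 lay just above the controls, by a margin the counts did not resolve, and the remaining 3 lay within their range. The log2 fold change was 1.81 ± 1.57 (SE, limma adjusted p = 0.388), and 0.67 (limma adjusted p = 0.570) without Boxer lymphoma 2. In the Boxers against controls the fitted change of 2.03 turned to -0.72 without it.

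**Figure D3:**
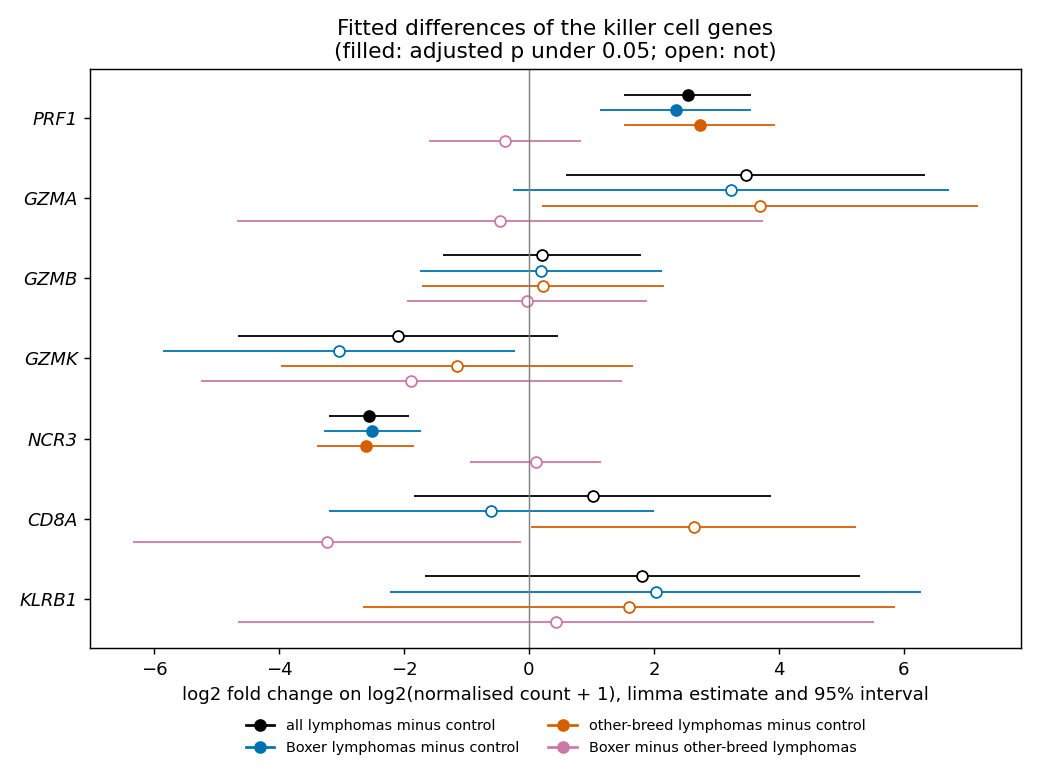
Log2 fold changes on the log2(value + 1) scale from limma with 95% intervals, for all lymphomas, Boxer lymphomas and other-breed lymphomas minus controls, and for Boxer minus other-breed lymphomas. Filled points passed an adjusted p under 0.05, which are those of PRF1 and NCR3 in the 3 comparisons that use the controls.

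The comparison of Boxer with other-breed lymphomas asked whether the breed sets these genes apart, and 0 of 7 passed. By limma 0 of 15112 genes were called in either direction (0.0% higher and 0.0% lower), with 753 at an unadjusted p under 0.05, which is 4.98%. By edgeR 0 genes were called, by DESeq2 102, and none of the 7 was among them. DESeq2 gave no adjusted p for CD8A and KLRB1, so it could not have called either. CD8A was lower in each Boxer lymphoma than in each other-breed lymphoma, a split whose share over all genes was not counted. Between Boxer lymphoma 2 (48.3, 51 reads) and other-breed lymphoma 2 (48.9, 62 reads) the counts did not resolve the order. Their exact Poisson intervals were 36.0 to 63.6 and 37.5 to 62.7. The difference of CD8A was -3.24 ± 1.31 on the log2 scale (SE, 95% interval -6.34 to -0.13, limma adjusted p = 0.881). It was the 1 gene of the 7 with an unadjusted p under 0.05 by limma. PRF1 differed by -0.38 (95% interval -1.60 to 0.83) and NCR3 by 0.11 (-0.94 to 1.16). Those intervals leave room for moderate differences between the groups in either direction. For GZMA (-0.47, interval -4.68 to 3.75), GZMK (-1.88, interval -5.25 to 1.48) and KLRB1 (0.43, interval -4.66 to 5.51) the intervals were far wider.

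Each lymphoma was also set against the 3 controls on its own, as a description with no test. Boxer lymphomas 1 and 3 had PRF1 and GZMA above the controls, GZMK, NCR3 and CD8A below them, and GZMB and KLRB1 within their range. In Boxer lymphoma 3 the places of GZMA (2 reads) and of CD8A (12 reads, with an exact Poisson interval of 6.46 to 21.8 around 12.5, beside 7.77 to 22.9 around the 13.9 of control 3) were not resolved by the counts. In Boxer lymphoma 1 the intervals of GZMA (1.87 to 11.1) and CD8A (2.39 to 12.3) also overlapped those of controls. For Boxer lymphomas 1 and 3, 42.9% and 43.7% of all genes tested lay above the controls and 39.0% and 39.3% below. Boxer lymphoma 2 and other-breed lymphoma 2 had PRF1, GZMA, CD8A and KLRB1 above, NCR3 below, and GZMB and GZMK within the range (43.4% and 41.8% of all genes above, 38.9% and 37.1% below). The counts did not resolve their places for CD8A, with intervals of 36.0 to 63.6 and 37.5 to 62.7, beside 24.3 to 45.9 in control 2. Nor did they for KLRB1 in other-breed lymphoma 2 (56.4 to 86.4, beside 44.8 to 82.2 in control 1). The sizes differed between these libraries, since KLRB1 was at 6050 in Boxer lymphoma 2 and 70.2 in other-breed lymphoma 2.

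Other-breed lymphoma 1 had PRF1, CD8A and KLRB1 above the controls and GZMK and NCR3 below, with GZMA at 0 as in the controls (39.7% of all genes above, 39.4% below). Other-breed lymphoma 3 had PRF1, GZMA and CD8A above and NCR3 below, with GZMB, GZMK and KLRB1 within the range (43.1% above, 38.3% below). Between 2 and 4 of the 7 genes were above the controls in a lymphoma and between 1 and 3 below. With shares of 37.1% to 43.7% as the background, these counts do not set the 7 genes apart from other genes.

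**Figure D4:**
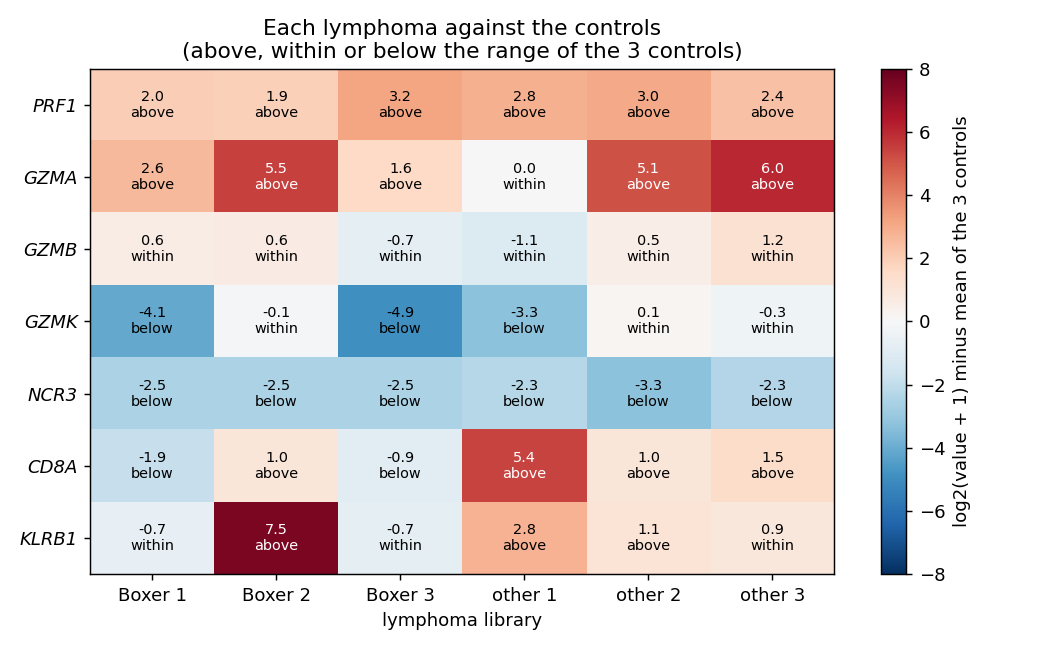
Log2(value + 1) of each gene in each lymphoma minus the mean of the 3 controls, with the place of the value above, within or below the control range. PRF1 is above and NCR3 below in all 6 lymphomas, GZMB is within the range in all 6, and the other 4 genes vary by lymphoma.

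The rest of the killing machinery was read from fixed gene lists, each counted in the comparison of lymphomas with controls. Of 10 tested genes of granule effectors and their packaging, 5 rose and 1 fell (median log2 fold change 0.60). The chaperone gene CALR, which holds perforin in the endoplasmic reticulum among many other clients, rose by 1.09. The lysosomal membrane gene LAMP2 rose by 0.87, and the protease gene CTSH by 1.68. The calls of these 3 genes ended with age as a covariate (limma adjusted p = 0.0619, 0.166 and 0.242). CTSW, a cathepsin of killer lymphocytes, rose from 1270 ± 150.3 (n = 3) to 5058 ± 2717 (n = 6) normalised reads (1.74 ± 0.54, limma adjusted p = 0.0302), a call kept in 11 of 19 other analyses, and other-breed lymphoma 2, at 1078, lay below the controls. CST7, which encodes cystatin F, an inhibitor of the proteases that activate granzymes, fell from 128 ± 41.0 to 35.2 ± 26.3 (-1.999 ± 0.51, limma adjusted p = 0.0128), with an adjusted p of 0.0689 without control 1. The lymphoma mean of SERPINB9, the inhibitor of granzyme B, was 3002 ± 1602, against a control mean of 5953 ± 893 (limma adjusted p = 0.0704). For SRGN, the granule proteoglycan serglycin, the lymphoma mean was 3058 ± 1502 and the control mean 4087 ± 1173 (limma adjusted p = 0.318). GZMH, GZMM, GNLY, NKG7 and CTSC were not analysed here.

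Of 19 tested granule exocytosis genes, 6 rose and 3 fell (median 0.09). VAMP7 (0.81) and RAB7A (0.84), of lysosome traffic, rose, calls that were kept in all 19 other analyses. The granule release genes STXBP2 (-0.71) and STX11 (-1.95), whose products are needed for granules to fuse, fell together with the actin regulator gene WAS (-1.06). The call of STX11 ended without control 1, 2 or 3 and with sex as a covariate, where the adjusted p reached 0.0873, and those of STXBP2 and WAS with age as a covariate (limma adjusted p = 0.236 and 0.0558). RAB27A (-0.22) and UNC13D (0.09), which dock and prime granules, did not pass (limma adjusted p = 0.377 and 0.810).

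Of 7 tested death ligands and effector cytokines, 0 rose and 1 fell (median -0.12). IFNG, the interferon gamma gene, fell from 46.0 ± 28.2 to 5.14 ± 7.01 normalised reads (-3.56 ± 1.05, limma adjusted p = 0.0251). Its call ended by edgeR, with sex as a covariate and without control 1 or 2, where the adjusted p reached 0.111. FASLG, the Fas ligand gene, had 2.55 to 75.3 normalised reads in 5 lymphomas and 291 in other-breed lymphoma 3, beside 41.7 to 76.4 in controls (limma adjusted p = 0.557). TNFSF10, the TRAIL gene, had a lymphoma mean of 2074 ± 649.9 and a control mean of 2185 ± 418 (limma adjusted p = 0.745).

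Of 20 tested killer cell receptors and adaptors, 5 rose and 4 fell (median 0.09). CD96, a receptor of T and NK cells, rose from 327 ± 20.3 to 3957 ± 2689 (3.39 ± 0.40, limma adjusted p = 2.67e-04). The adaptor genes TYROBP (5.26) and FCER1G (at least 20.6-fold higher, with 0 control reads) were higher too, and macrophages and other myeloid cells express both. Both had 0 to 1.85 normalised reads in controls and passed the filter through the lymphomas alone, so a rise was built into their being tested. The call of FCER1G ended with age (limma adjusted p = 0.446) or sex (limma adjusted p = 0.0503) as a covariate. IL2RB (-2.39), SLAMF6 (-2.23) and KLRG1 (-2.69) fell, calls that were kept in all 19 other analyses. KLRD1 (0.13) and KLRK1 (-0.53) did not pass (limma adjusted p = 0.914 and 0.710). NCR1, the NKp46 gene that marks NK cells, was under the filter, with 0, 0 and 0.926 normalised reads in controls and 3.40 to 13.8 in lymphomas.

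Of 21 tested lineage regulators, 1 rose and 4 fell (median -0.33). TBX21, which encodes T-bet, a driver of granzyme and perforin transcription, fell from 104 ± 37.5 to 33.4 ± 37.8 (-1.99 ± 0.64, limma adjusted p = 0.0356), a call kept in 7 of 19 other analyses. Its value was 110.4 in other-breed lymphoma 2 and 13.6 to 21.2 in the other 5. PRDM1, the Blimp-1 gene, fell by 2.98 (limma adjusted p = 0.0145), with an adjusted p of 0.0672 without control 1. EOMES (0.80), RUNX3 (-0.45) and ZBTB7B (-1.07), the last of which encodes the CD4 lineage factor ThPOK, did not pass (limma adjusted p = 0.563, 0.511 and 0.188). GATA3, the type 2 helper regulator, rose by 1.996, a call that was kept in all 19 other analyses.

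**Figure D5:**
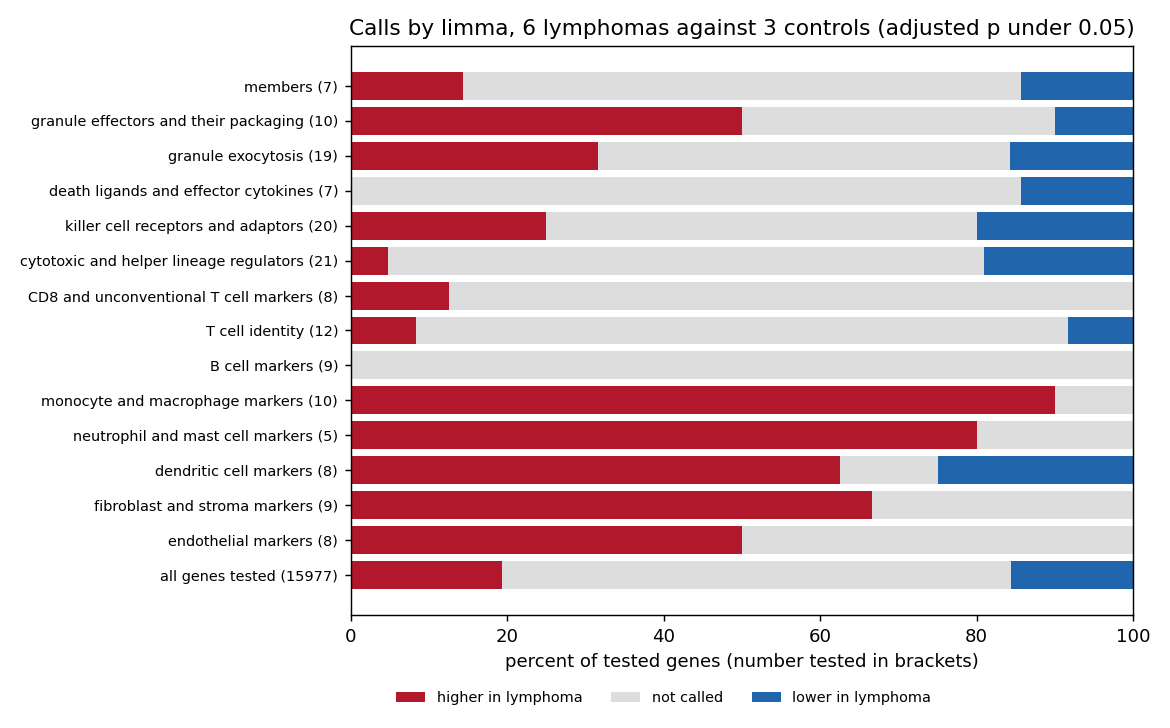
Percent of tested genes of each list that were called higher or lower in the 6 lymphomas than in the 3 controls by limma, with the number tested in brackets and all 15977 genes at the bottom. Markers of macrophages (9 of 10 higher) and of neutrophils and mast cells (4 of 5) have the highest shares, and none of the 9 B cell markers was called. Many of the macrophage and neutrophil markers needed the lymphomas to pass the filter, so a rise was built into those shares.

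Of 12 tested T cell identity genes 1 rose and 1 fell (median -0.28), and of 8 markers of CD8 and unconventional T cells 1 rose and 0 fell (median -0.43). Markers of some cells other than T cells were higher in the lymphomas, while B cell markers were not called. The part of such cells in the results above was not tested. Of 10 tested monocyte and macrophage markers 9 were higher, and their summed level was 143 to 209 normalised reads in controls and 924 to 21176 in lymphomas. Stromal markers (6 of 9 higher) summed to 16.5 to 58.7 and 103 to 12420, and endothelial markers (4 of 8 higher) to 333 to 725 and 128 to 6846. The endothelial sum was below all controls in other-breed lymphomas 1 and 2 (180 and 128). Most of each control sum was KDR (626, 298 and 262 in controls 1 to 3), an uncalled gene of the list. It was at 49.4 and 27.6 in other-breed lymphomas 1 and 2, so that order rested on KDR. With age as a covariate 8 of the 9 macrophage calls ended, as did all 6 stromal and all 4 endothelial calls, and PDGFRB, VWF and FLT1 turned sign. Neutrophil and mast cell markers (4 of 5 higher) summed to 39.8 to 65.5 and 318 to 1840. The uncalled gene of those 5 gave 1595 of the highest sum, that of Boxer lymphoma 1. Dendritic cell markers (5 of 8 higher, 2 lower) summed to 18434 to 20879 in controls and 8015 to 14079 in lymphomas. Most of that last sum was CCR7, a homing receptor gene that T cells express too (18291 to 20734 in controls, 6062 to 11061 in lymphomas), and the other 7 markers summed to 143 to 174 in controls and 1257 to 3255 in lymphomas. B cell markers (0 of 9 called) summed to 1734 to 2014 and 512 to 6424, with the highest in other-breed lymphoma 1, the library with the most CD8A. MMP2 and LUM of the stromal list were at 0 in all controls. Like C1QA, AIF1 and COL1A1 (0 to 9.26, 0 to 4.95 and 0 to 5.56 in controls), they passed the filter through the lymphomas alone. Many macrophage, neutrophil, dendritic, stromal and endothelial markers needed the lymphomas to pass. A rise was thus built into their being tested and into the counts above.

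For each gene the 3 features with the most similar pattern over the 6 lymphomas were found by Pearson r on log2(value + 1), among 9454 features with a symbol and a mean of at least 50. With n = 6 and so many candidates a high r arises for any gene, and no p is given. PRF1 was nearest to UNC5A (r = 0.99, Spearman rho = 0.94), ANO10 and MTR. GZMA was nearest to OCLN (r = 0.98, rho = 0.89), TBC1D4 and CECR1, GZMB to MFSD12 (r = 0.99, rho = 0.94), TIPARP and RAB11FIP1, and GZMK to GPR108 (r = 0.98, rho = 0.77), PSMD3 and ST14. NCR3 was nearest to PHB2 (r = 0.99, rho = 0.77), COQ9 and ATAD5. CD8A was nearest to POLR2F (r = 0.995, rho = 0.94), AURKAIP1 and ATP6AP2, and KLRB1 to TAF2 (r = 0.99, rho = 0.94), DAZAP1 and PPP1R11.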

How the data were processed

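Libraries were made from polyadenylated RNA by random priming, per the labels' protocols, which do not say whether strand was marked. The build CanFam3.1 and the tools TopHat2, HTSeq and DESeq2 are named in the submitters' processing notes. The deposited signal per gene is the authors' read count divided by 1 factor per library: 100% of values were whole multiples of 1 read (tolerance 0.01 reads), so reads were recovered. Reads shared between related granzyme genes may be split.

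limma (3.58.1, R 4.3.3, mean-variance trend) was fitted to log2(value + 1), which understates changes of low genes. Lymphomas against controls used 2 groups. Boxer and other-breed lymphomas against controls came from a 3-group fit and share the controls. Boxer against other-breed lymphomas used the 6 lymphomas. Tests were checked on simulated data. Alternatives were other scalings, filters, pseudocounts (0.5, 5), edgeR (4.0.16), DESeq2 (1.42.0), age, sex, a replicate block and leaving out each library.

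All 7 genes are named, with 26 key genes and up to 3 called genes per list and direction by smallest p. Members and lists were chosen with earlier results of these data known. Pairing was checked: deviations of same-numbered libraries correlated at -0.14 to 0.10, so the numbers do not pair samples. Genes not found under their symbols were not analysed here. 1 gene of a list is not reported here by name.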

Additional observations from a re-analysis of the deposited data

Results flagged for a closer look

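In 6 of 28 genes checked, the highest or lowest of the 6 lymphomas lay apart from the other 5, by a gap over the range above 0.625. Chance flags about 1 in 20 where values are normally distributed, which skewed read counts are not. On the log2(value + 1) scale 3 of the 6, those of NCR3, CST7 and TBX21, passed the same limit. CD8A was at 1089 normalised reads in other-breed lymphoma 1 and KLRB1 at 6050 in Boxer lymphoma 2, each above the other lymphomas. NCR3 was at 55.2 in other-breed lymphoma 2, below the other 5 lymphomas. CST7 was at 88.1 and FASLG at 291 in other-breed lymphoma 3, and TBX21 at 110.4 in other-breed lymphoma 2, each the highest lymphoma. Boxer lymphoma 2 also had the lowest CD5 (265) of the 9 libraries, and other-breed lymphoma 1 the highest MS4A1 (5123).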

How the results depend on the processing

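The calls of PRF1 and NCR3 against the controls were kept in every alternative run, and no alternative called any of the 7 genes between Boxer and other-breed lymphomas. Counts of all genes called moved more. Lymphomas against controls gave 5596 genes, 1933 with age as a covariate and 3060 to 5896 when 1 library was left out (lowest without control 2). Boxer lymphomas against controls gave 5269 (2775 to 5635) and other-breed lymphomas 3912 (1689 to 4132), each lowest without control 2. Boxer against other-breed lymphomas gave 0, but 2 with a pseudocount of 5 or in the 3-group fit, 102 by DESeq2 and 0 to 2 when 1 library was left out; the cause was not tested.

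With the replicate block the counts were 4910, 4528, 3109 and 0 in that order, with PRF1 and NCR3 called as before; it changed no call of the 7 genes. Each library matched its own number best in 5 of 18 cases, so the numbers do not pair the samples.

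Signs turned for uncalled genes. GZMB over all lymphomas was 0.21, and -0.055 by edgeR, -0.046 by DESeq2, -0.95 with age and -0.34 to 0.98 when 1 library was left out. In Boxers it was 0.19, and -0.15 by edgeR and DESeq2 (left out, -0.36 to 0.96), and in other breeds 0.22 (left out, -0.32 to 1.00). Between breeds, leaving out 1 library gave GZMB -0.68 to 0.45, GZMA -2.32 to 0.34, NCR3 -0.22 to 0.28 and KLRB1 -2.32 to 1.81. In Boxers it gave CD8A -1.38 to 0.031 and KLRB1 -0.72 to 3.41. Of 63 list genes called, 16 kept their call in every alternative. DESeq2 gave no adjusted p for CD8A and KLRB1, and GZMA was not tested without a library that it needs to pass the filter. Low reads limit GZMA, GZMB and PRF1 in controls.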

Other observations

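Markers of unconventional T cells, some of which carry CD161 from KLRB1, varied by lymphoma as well. SLC4A10, a bicarbonate transporter gene of mucosal-associated invariant T cells, had 13.6, 1.65 and 3.70 normalised reads in controls, 589, 299 and 809 in Boxer lymphomas and 391, 998 and 126 in other-breed lymphomas. Every lymphoma was above every control, as for 18.5% of the genes tested. The log2 fold change was 6.27 ± 0.70 (SE, limma adjusted p = 1.97e-04), and the call was kept in all 19 other analyses. SLC4A10 needed the lymphomas to pass the filter, with controls 2 and 3 at 1.65 and 3.70, so a rise was partly built into its being tested. ZBTB16, which encodes the innate-like T cell regulator PLZF, was at 2524 in Boxer lymphoma 1 and 322.5 in other-breed lymphoma 2, at 3.53 to 51.0 in the other 4 lymphomas, and at 3.70 to 84.6 in controls (limma adjusted p = 0.621). The lymphoma with the most KLRB1, Boxer lymphoma 2, had 12.3 normalised reads of ZBTB16 and 299 of SLC4A10, so these genes did not rank the lymphomas as KLRB1 did.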
